A study of Aspergillus niger with 27 samples.

Results

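Of the 11846 gene models counted in mycelium of the filamentous fungus Aspergillus niger, 44 were lowest over sugar beet pulp, in colonies that covered glucose, sugar beet pulp and wheat bran at once. They were chosen by their own counts. After median-of-ratios scaling, which divides each library by a factor set by its typical gene, the mean over the glucose compartments and the mean over the wheat bran compartments were each at least 50 scaled counts. These means also lay within 2-fold of each other, were at least 2.5 times the mean over the sugar beet pulp compartments, and exceeded it on each plate. Genes that dropped at least 3-fold from compartment 4 to 6 while climbing at least 3-fold from compartment 7 to 9 had been set aside, as had any gene among the 20 largest counts of a library. These clauses removed 13 and 3 genes that met all other criteria, 14 in all since 2 met both. Because the rule used the differences between substrates, those differences are given below as a description, with no test.

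Mycelium was sampled from 3 plates, A, B and C, each inoculated at its centre, so that 1 colony spread over 9 compartments of liquid medium that were walled off from each other, with a membrane between medium and hyphae. Compartments 1 to 3 held glucose, 4 to 6 sugar beet pulp and 7 to 9 wheat bran, and each compartment of each plate was sequenced once, for 27 libraries. No strain, genotype, treatment or age is stated, and the labels number the compartments without placing them, beyond saying that each section has 1 compartment flanked by its own substrate and that the others border another substrate. The plate was taken as the replicate (n = 3), because the libraries of a plate come from the same colony.

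Glucose is a simple sugar that represses many genes for the use of other carbon sources in Aspergillus. Sugar beet pulp is a residue rich in pectin, cellulose and arabinan, and wheat bran a residue rich in arabinoxylan that also carries starch, and the fungus degrades both with secreted enzymes. The 44 genes therefore put a simple sugar and a plant residue on the same side and the other plant residue on the opposite side. The deposited table names genes by numbers that begin with NRRL3, and 0 of the 11846 could be joined to the reference gene table of assembly ASM285v2, which uses another numbering. No gene name, function, coordinate or sequence is therefore given, lists of genes for carbon, nitrogen, phosphate and iron use and for secretion were not analysed here, and the label mycelia could not be checked against markers. In the numbering, 0 of 44 members had a neighbouring number in the set, and the closest numbers were 18 apart. Members were 0.371% of all numbers, so few neighbours would be found in any set of this size.

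Libraries held 8006891 to 24501824 counts. The wheat bran compartment 9 libraries had the lowest totals, of 8006891 to 11847598 counts. Their 20 most abundant genes held 35.1% to 42.9% of their counts. That share was 14.7% to 24.9% in the sugar beet pulp libraries and 20.2% to 40.1% in the glucose libraries. All 44 members passed the low-count filter of the fit, which kept 10990 genes, and the smallest count of a member in any library was 2. Counts depend on transcript length, so levels are compared within a gene and never between genes.

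Across the set, the glucose mean was 2.51 to 6.93 times the sugar beet pulp mean, with a median of 3.22. The wheat bran mean was 2.51 to 8.81 times the sugar beet pulp mean, with a median of 3.69. Wheat bran lay above glucose in 27 of the 44 genes, and the ratio of wheat bran to glucose ran from 0.532 to 1.99 with a median of 1.06. For 23 genes the lower of the glucose and wheat bran means was at least 3 times the sugar beet pulp mean, and for 5 it was at least 4 times. Less transcript per hypha and fewer hyphae that make it cannot be told apart in RNA of whole mycelium.

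**Figure D1:**
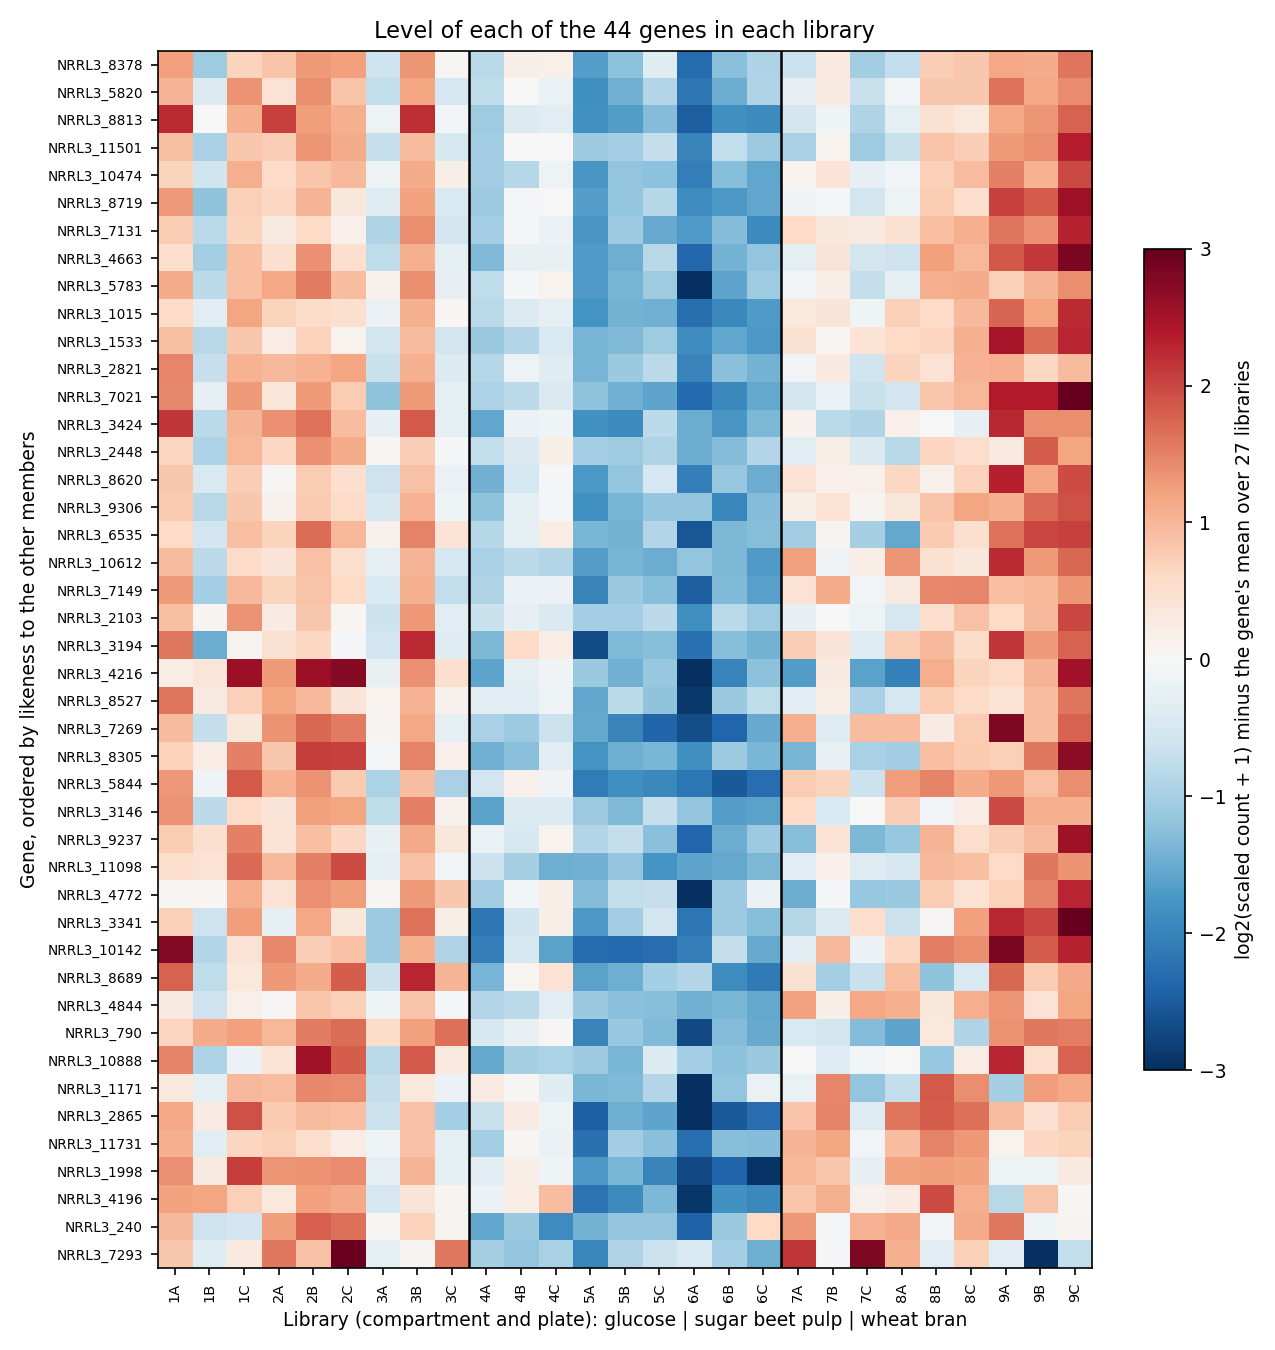
Each row is a gene and each column a library, named by compartment and plate, with black lines between glucose, sugar beet pulp and wheat bran. The colour is log2(scaled count + 1) minus the mean of the gene over 27 libraries, with 6 of 1188 values beyond the colour limits of 3. The middle block is mostly blue, and in the glucose block the columns 1B, 3A and 3C are paler or blue.

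NRRL3_10142 had the largest ratio of its lower mean, on glucose or wheat bran, to its sugar beet pulp mean. That rank came from plate A, where the ratio was 14.6, against 2.87 on plate B and 4.33 on plate C. Without plate A the gene did not meet the rule, although the ratios of plates B and C lay above the fold limit. Its wheat bran means on plates B and C were 198 and 201 scaled counts, and its glucose means 101 and 87.1. Averaged over these plates, wheat bran and glucose were no longer within 2-fold of each other, as the rule required. Over all plates the gene had 141 ± 80.7 scaled counts on glucose and 207 ± 13.4 on wheat bran (SD, n = 3 plates). Over sugar beet pulp it had 23.5 ± 10.4 (SD, n = 3 plates). On sugar beet pulp its libraries of plates A, B and C held 16.3, 49.8 and 22.5 scaled counts in compartment 4. In compartment 5 they held 13.4, 13.2 and 13.7, and in compartment 6 they held 15.9, 42.7 and 24.2. Its lowest level was thus in compartment 5, where the plates differed least. On glucose the gene stood at 476, 37.8 and 95.2 scaled counts in compartment 1, at 191, 117 and 129 in compartment 2 and at 32.5, 149 and 37.0 in compartment 3. The glucose libraries of plate B compartment 1 and of plates A and C compartment 3 lay within the range of the sugar beet pulp libraries. On wheat bran it stood at 55.2, 139.7 and 61.9 in compartment 7, at 109, 205 and 185 in compartment 8 and at 504, 249 and 355 in compartment 9, all above the highest sugar beet pulp library.

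NRRL3_7269 had the next largest ratio, with 2597 ± 259.9 scaled counts on glucose and 3402 ± 1673 on wheat bran, and with 481 ± 63.6 over sugar beet pulp (SD, n = 3 plates). Plates A, B and C gave 707, 652 and 899 scaled counts in compartment 4, 479, 351 and 263 in compartment 5 and 221, 270.2 and 487 in compartment 6. The glucose values were 2691, 855 and 1777 in compartment 1, 3549, 4605 and 4126 in compartment 2 and 1469.7, 3147 and 1151 in compartment 3. Only the compartment 1 library of plate B fell under the highest sugar beet pulp library. On wheat bran the gene stood at 2963, 1061 and 2638 in compartment 7, at 2655, 1659 and 2391 in compartment 8 and at 9789.6, 2672 and 4789 in compartment 9, again above every sugar beet pulp library.

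A full separation of libraries was rare. In 2 of 44 genes, NRRL3_10612 and NRRL3_11098, all 9 sugar beet pulp libraries lay below all 18 others, a criterion met by 0.0546% of all genes tested, which was not applied in choosing the members but rests on the same contrast. These 2 genes were picked after their values were seen. NRRL3_10612 held 61.9 to 116 scaled counts in the sugar beet pulp libraries, where the glucose libraries held 118 to 413 and the wheat bran libraries 189 to 954. NRRL3_11098 held 24.0 to 53.6 in the former, where glucose gave 68.2 to 331 and wheat bran 60.5 to 256. By compartment means, on the contrast the rule used, all sugar beet pulp compartments lay below all others in 32 of the 44 genes and in 12.1% of all genes tested.

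The members with the highest mean counts, NRRL3_5783 and NRRL3_8378, were higher on glucose than on wheat bran, unlike NRRL3_10142 and NRRL3_7269. NRRL3_5783 stood at 45360.3 ± 6457 scaled counts on glucose, 39469 ± 9485 on wheat bran and 13146 ± 4348 over sugar beet pulp (SD, n = 3 plates). NRRL3_8378 stood at 19793 ± 1234, 17996 ± 3890.1 and 7135 ± 2630.0 in the same order. Near the 2.5-fold limit the set ended without a gap. NRRL3_1171 and NRRL3_8527 lay just inside, with ratios of 2.51 each, and NRRL3_3236 and NRRL3_1602 just outside, with 2.4995 and 2.46. Another 94 genes met every other criterion with a ratio from 2 up to the limit.

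The plates did not contribute equally. The median over members of the lower of the 2 ratios was 3.68 on plate A, 2.91 on plate B and 2.45 on plate C. Taken plate by plate, 35 genes passed the 2.5-fold limit on plate A, 35 on plate B and 20 on plate C, and 14 passed on every plate. Of all genes tested, 5.96%, 1.55% and 0.874% passed on plates A, B and C, and 0.3% on every plate. Without plate C, whose contrast was smallest, the rule found 104 genes, 39 of them among the 44.

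The glucose mean hid a split that followed the plate. On plate A, all 44 genes were lowest in compartment 3 among the glucose compartments, and on plate C, 39 of 44 were. On plate B, 43 of 44 were lowest in compartment 1 instead. Among all genes tested, 39.6%, 40% and 40% were lowest in those respective compartments. As a median over members of log2(scaled count + 1) relative to each gene's mean, plate A stood at 0.94 in compartment 1, 0.67 in compartment 2 and -0.41 in compartment 3. Plate C stood at 0.91, 0.93 and -0.15, and plate B at -0.60, 1.24 and 1.09, in the same order. Compartment 2 was never the lowest of the glucose compartments in any of the 44 genes on any plate, and by compartment means 29 of 44 were highest there, against 24.2% of all genes tested. The 3 low glucose libraries were nearer to sugar beet pulp compartment 4, which stood at -0.99, -0.27 and -0.16 on plates A, B and C, than to the other glucose libraries. On the other substrates plate B kept the order of the other plates, with compartment 4 above 6 in 42 of 44 genes and compartment 9 above 7 in 36, against 52.4% and 49.8% of all genes tested on that plate. Compartments were taken as the labels number them, and whether compartments 1 and 3 of plate B lie as on the other plates was not tested.

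**Figure D2:**
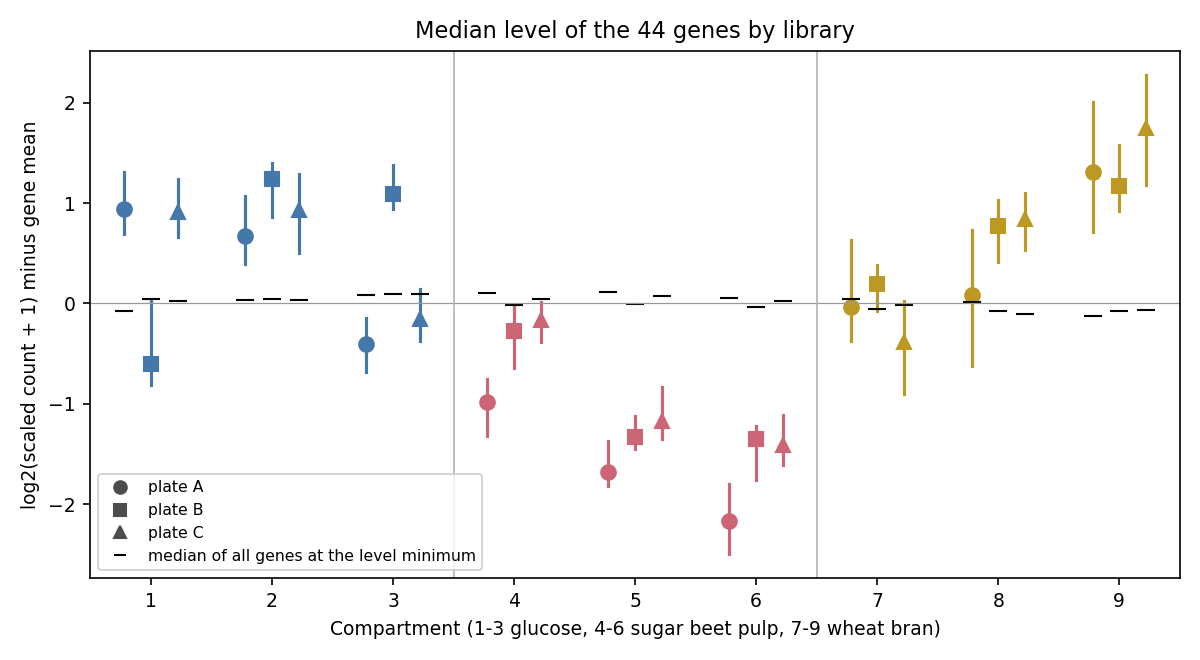
Points give, for each library, the median over the 44 genes of log2(scaled count + 1) minus the gene's mean, with lines from the lower to the upper quartile, by compartment on the horizontal axis and with a marker shape per plate. Black dashes give the same median over the 7638 genes that met the level minimum on glucose and wheat bran, which stayed between -0.12 and 0.12 while the 44 genes ran from -2.17 to 1.74.

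Among the glucose compartments 0 of 44 members passed the edgeR quasi-likelihood F-test at a Benjamini-Hochberg adjusted p of 0.05, where 0.118% of 10990 genes passed. At an unadjusted p under 0.05 there were 10 members and 7.41% of all genes, and DESeq2 called 0 members and 1.12% of all genes. From compartment 1 to 3, 0 members passed in either direction, against 0.0182% of genes higher and 0.0091% lower in compartment 3, and the median log2 change over members was -0.31. Without plate B, 17 members passed from compartment 1 to 3, all lower in compartment 3, with a median log2 change of -1.21, where 15.4% of all genes passed in either direction. Without plate A the median over members was 0.29 and 0 passed. As the rule used the mean over the glucose compartments, these counts describe the set rather than test it.

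Within the sugar beet pulp section, the members were generally highest in compartment 4 and lowest in compartment 6. By compartment means 41 of 44 were highest in compartment 4, against 42.1% of all genes tested, and 36 of 44 followed the order 4 above 5 above 6, against 30.5%. Compartment 4 exceeded compartment 6 on all plates in 32 genes, against 28.1% of all genes, and the reverse held on all plates in 0 genes, against 24.5%. It exceeded compartment 5 on all plates in 38 genes, against 23.3%. The ratio of compartment 4 to 6 had a median of 2.15 and ran from 0.493 to 6.17. The clause on compartments 4, 6, 7 and 9 had already removed genes in which such a change was 3-fold together with a rise to compartment 9, so these counts leave out the steepest cases.

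In the fit of all 27 libraries, 5 of 44 members differed among compartments 4, 5 and 6, where 0.874% of 10990 genes did, and 6 fell from 4 to 6, where 0.728% did. From 4 to 6, 0 members rose, where 0.682% of genes did. The direction was shared more widely than the calls, with a negative log2 change in 41 of 44 members and a median of -1.16, against -0.02 over all genes. The rule used the mean over these compartments and a clause on 4 and 6, so these calls describe the set rather than test it. NRRL3_4196 fell furthest. On plates A, B and C it held 65.9, 87.4 and 142 scaled counts in compartment 4, 15.2, 19.1 and 28.6 in compartment 5 and 8.96, 20.4 and 18.6 in compartment 6. Compartment 4 thus lay above every library of compartments 5 and 6 and within the range of the glucose libraries, which ran from 52.3 to 176. Its log2 fold change from 4 to 6 was -2.67 (SE 0.39, edgeR quasi-likelihood adjusted p = 0.0012). It was also the 1 member called from compartment 4 to 5, where 0.127% of genes were called, with a log2 fold change of -2.25 (edgeR adjusted p = 0.017).

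NRRL3_1998 fell in a graded way. Compartment 4 held 1923, 2829 and 2247 scaled counts on plates A, B and C, compartment 5 held 744, 946 and 622, and compartment 6 held 372, 463 and 316. No library of 1 of these compartments overlapped those of another. The log2 fold change from 4 to 6 was -2.62 (SE 0.41, edgeR quasi-likelihood adjusted p = 0.0013). On wheat bran the gene was highest in compartment 8, at 5706 ± 120.4 scaled counts, against 3770.2 ± 1489 for compartment 7 and 2450.0 ± 427 for compartment 9 (SD, n = 3 plates). The log2 fold change from 7 to 9 was -0.68 (SE 0.39, edgeR adjusted p = 0.18), while the test over compartments 7, 8 and 9 gave an edgeR adjusted p of 0.046. With NRRL3_790 it was 1 of 2 members called in both plant residue sections, as were 0.446% of genes. Its wheat bran call was lost without plate A, B or C, at edgeR adjusted p-values of 0.21, 0.075 and 0.18, and with RLE factors, at 0.059.

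The other members that fell from compartment 4 to 6 were NRRL3_2865, NRRL3_5844, NRRL3_790 and NRRL3_1015, named after their values were seen, with log2 fold changes of -2.58, -2.17, -1.62 and -1.51. Their edgeR quasi-likelihood adjusted p-values were 0.0062, 0.018, 0.018 and 0.036 (n = 3 plates). Calls were few for all genes when a plate was left out: without plate C, 0 members and 0 of 11029 genes passed from compartment 4 to 6, and without plate A, 2 members and 0.38% of genes did. The median log2 change over members was -1.18 and -1.13 in those respective fits. A fit of the 9 sugar beet pulp libraries alone, with its own estimate of the spread, called 31 members from 4 to 6, all lower in compartment 6, where 20.2% of genes passed in either direction.

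**Figure D3:**
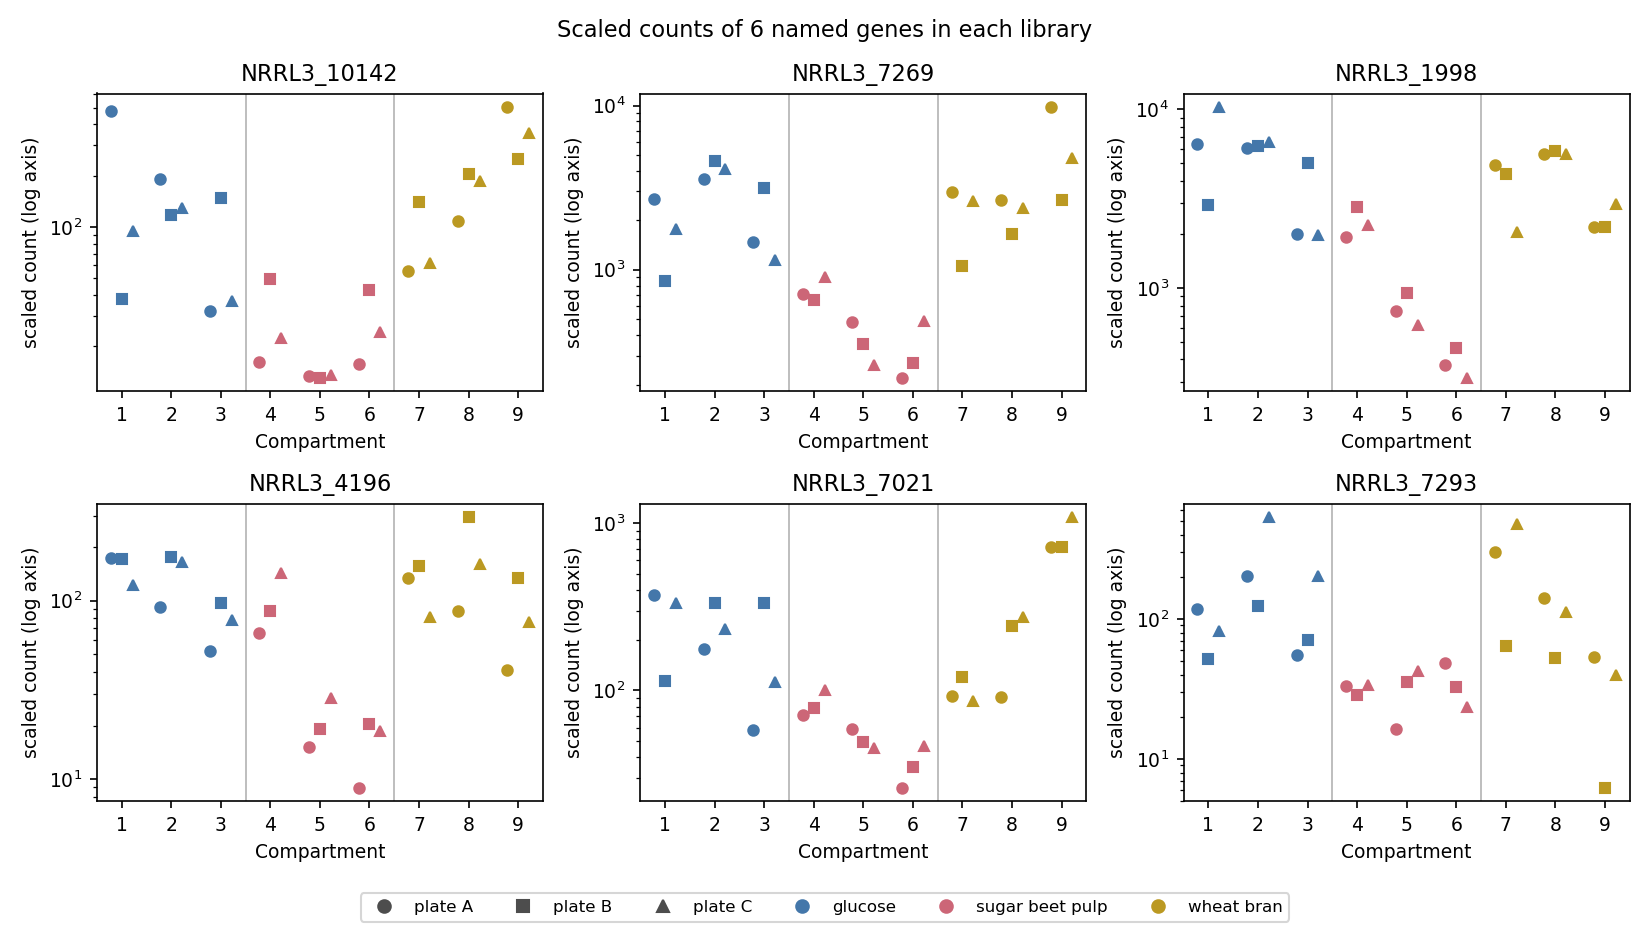
Scaled counts of 6 named genes on a log axis, by compartment, with colours for substrates and marker shapes for plates. NRRL3_4196 and NRRL3_1998 drop steeply from compartment 4 to 6, NRRL3_7021 climbs to 717 to 1085 scaled counts in compartment 9, and NRRL3_7293 drops from compartment 7 to 9.

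Within the wheat bran section, most members were highest in compartment 9. By compartment means 35 of 44 were, against 44.6% of all genes tested. Compartment 9 exceeded compartment 7 on all plates in 36 genes, against 29.8% of all genes, and lay below it on all plates in 2, against 30.7%. The ratio of compartment 9 to 7 had a median of 2.74 and ran from 0.119 to 8.44. On the contrast the rule used, compartment 9 alone was at least 2.5 times the sugar beet pulp mean in 41 of 44 genes, compartment 8 in 32 and compartment 7 in 15. Over all genes tested the same order held, with 19.1%, 11% and 7.05%. On glucose, the corresponding numbers of members were 37 for compartment 1, 42 for compartment 2 and 27 for compartment 3, against 3.39%, 3.59% and 1.86% of all genes. All 6 glucose and wheat bran compartments passed that limit in 6 members and in 0.155% of all genes.

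In the fit of all libraries, 29 of 44 members differed among compartments 7, 8 and 9, where 32.4% of 10990 genes did. From compartment 7 to 9, 29 members rose, where 18.3% of genes rose, and 1 fell, where 21.2% fell. The median log2 change over members was 1.39, against -0.06 over all genes. Since the rule used the mean over the 3 wheat bran compartments, a gene that is high in any of them enters the set more readily, and these counts describe the set rather than test it. From compartment 7 to 8, 0 members and 0 of 10990 genes passed, while 40 of 44 members had a positive log2 change. The median over members was 0.53, against -0.02 over all genes. Plate A differed, with compartment 8 above 7 in 21 members, against 39 on plate B and 41 on plate C. Of all genes, 44.8%, 48.9% and 51.3% had this order on those respective plates.

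NRRL3_7021 rose most. On plates A, B and C it held 92.7, 119.9 and 86.2 scaled counts in compartment 7, 91.2, 243 and 275 in compartment 8 and 717, 720.2 and 1085 in compartment 9. The log2 fold change from 7 to 9 was 3.00 (SE 0.49, edgeR quasi-likelihood adjusted p = 1.1e-04). Its compartment 7 libraries overlapped its compartment 4 libraries, which held 71.7, 78.6 and 101 scaled counts. NRRL3_3341 rose from 22.1, 30.2 and 58.8 scaled counts in compartment 7 to 198, 165 and 327 in compartment 9, a log2 fold change of 2.65 (SE 0.53, edgeR quasi-likelihood adjusted p = 5.5e-04).

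NRRL3_7293 was the member that fell. It held 301, 64.2 and 476 scaled counts on plates A, B and C in compartment 7, 142, 52.8 and 111 in compartment 8 and 54.0, 6.24 and 39.9 in compartment 9. The sugar beet pulp libraries ran from 16.5 to 48.2, so compartment 9 lay above them on plate A, below them on plate B and among them on plate C. These compartment 9 values rest on only 21, 2 and 10 counts before scaling on plates A, B and C. From 7 to 9 it fell by 3.00 on the log2 scale (SE 0.62, edgeR quasi-likelihood adjusted p = 7.3e-04). In compartments 4, 5 and 6 it held 31.9 ± 2.72, 31.6 ± 13.6 and 34.8 ± 12.5 scaled counts (SD, n = 3 plates).

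The number of calls moved with plate C and with the scaling. Without plate C, 6 members passed from compartment 7 to 9, all higher in 9, with a median log2 change of 1.23, where 8.7% of genes passed in either direction. Among compartments 7, 8 and 9, 2 members and 3.47% of genes differed without plate C, and 17 members and 26.8% of genes without plate A. With counts divided by library totals alone, which moved the median log2 change of all genes from 7 to 9 to -0.84, 13 members and 638 of all genes were higher in compartment 9, 5 members and 4253 of all genes were lower, and the median over members was 0.58.

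By compartment means, 37 of 44 genes had compartment 4 above 6 and compartment 9 above 7, against 32.5% of all genes tested, and 29 of 44 followed the full orders 4 above 5 above 6 and 7 below 8 below 9, against 15.8%. The steepest fallers from 4 to 6 did not share this: NRRL3_4196, NRRL3_1998 and NRRL3_2865 had log2 changes of -0.76, -0.68 and -0.12 from 7 to 9, none of them called. The rule acted on this pair of changes, since the clause removed the 13 genes with both ratios at 3 or more. Among the members, 5 had the ratio of compartment 4 to 6 at 3 or more and 19 that of 9 to 7. By the clause those 5 could stay only with a ratio of 9 to 7 under 3, so the rule itself limited their rise. They include NRRL3_5844 and NRRL3_3194, named after their values were seen. These genes had log2 changes of 0.79 and 1.43 from 7 to 9, neither of them called.

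**Figure D4:**
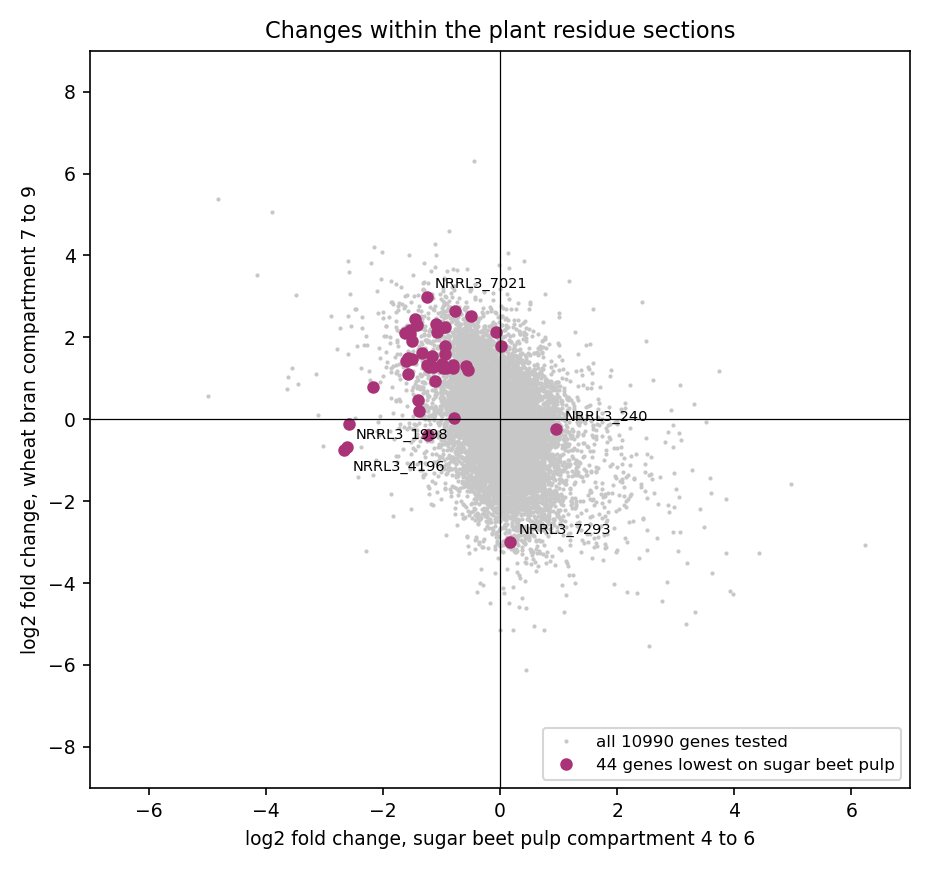
The horizontal axis is the log2 fold change from sugar beet pulp compartment 4 to 6 and the vertical axis that from wheat bran compartment 7 to 9, from the fit of all 27 libraries. Small grey points are the 10990 genes tested and large points the 44 genes lowest on sugar beet pulp, most of which lie in the upper left part around their medians of -1.16 and 1.39.

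Within sections the members followed each other closely. After the mean of each plate and substrate was removed, the correlation between 2 members across the 27 libraries had a median of 0.75. Its quartiles were 0.53 and 0.85 over 946 pairs. Pairs of all 7638 genes at the level minimum had a median of 0.01 and quartiles of -0.38 and 0.39. Members were chosen on section means, which genes high in the same compartments pass more readily, so these correlations describe the set rather than test it. The libraries are shared by all pairs, and each value also carries the library's scaling factor. The correlation of a member with the mean of the others was above 0.5 in 41 of 44 genes and had a median of 0.87. The exceptions were NRRL3_7293, at -0.34, NRRL3_240, at 0.17, and NRRL3_4196, at 0.39. NRRL3_240, named after its values were seen, held 610.3 ± 164, 718 ± 68.7 and 1239 ± 1215 scaled counts in compartments 4, 5 and 6 (SD, n = 3 plates). The last mean came from plate C, where compartment 6 held 2615 scaled counts against 316 on plate A and 786 on plate B.

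The makeup of the libraries moved with the level of the set. The 44 genes together took 0.445% to 0.969% of the counts of glucose libraries, 0.379% to 0.790% of wheat bran libraries and 0.158% to 0.583% of sugar beet pulp libraries. The 20 most abundant genes of each library, none of which is a member, took 20.2%, 22.4% and 23.4% of the counts in the 3 low glucose libraries, and 29.0% to 40.1% in the other 6. They took 21.9% to 24.9% in compartment 4, against 14.7% to 17.7% in compartments 5 and 6. In wheat bran the shares were 24.9% to 27.7% in compartment 7 and 35.1% to 42.9% in compartment 9. The part of this in the levels of the 44 genes was not tested. When counts were divided by library totals alone, the rule found 12 genes, 5 of them among the 44: NRRL3_2865, NRRL3_5844, NRRL3_7021, NRRL3_7269 and NRRL3_10142.

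**Figure D5:**
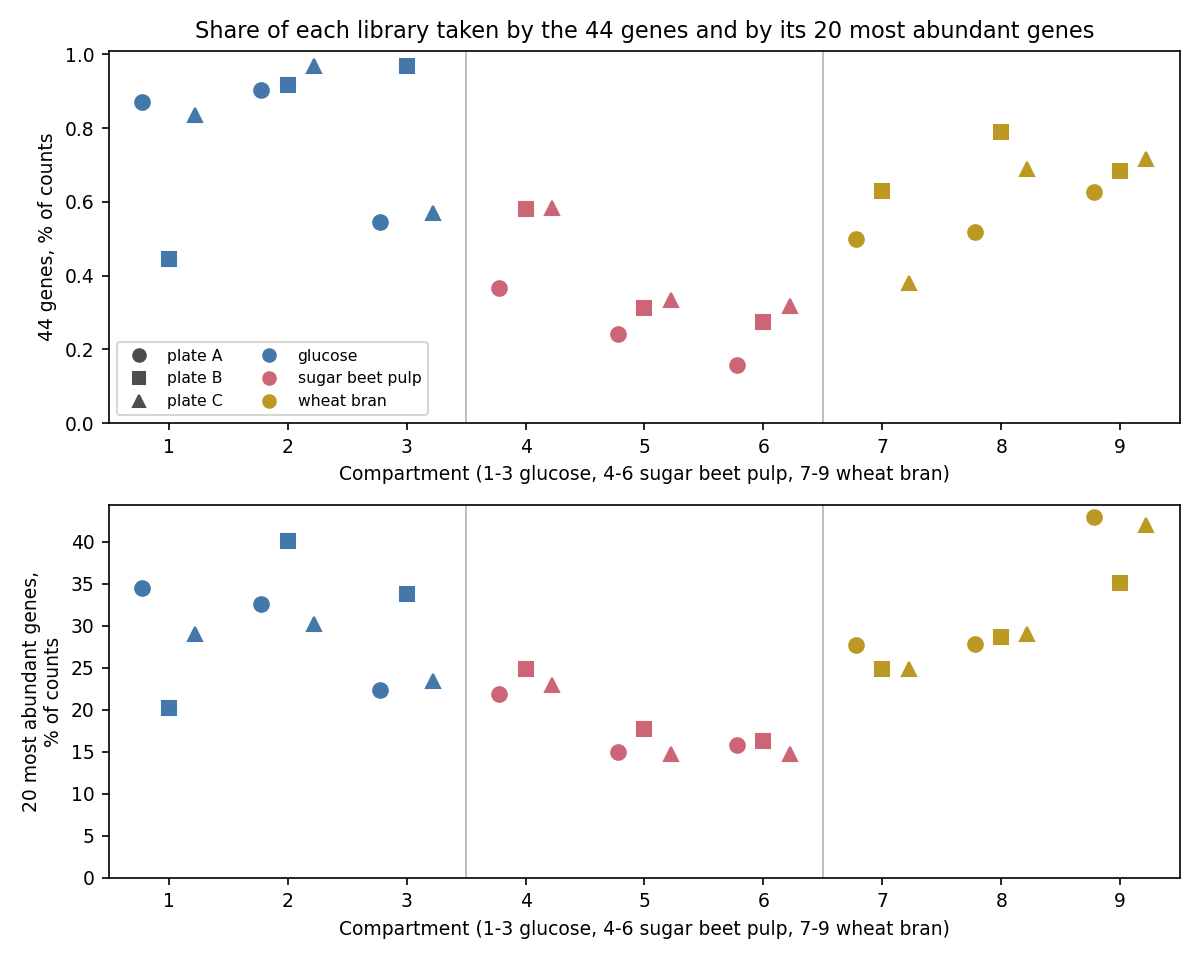
The upper panel gives the share of each library's counts taken by the 44 genes and the lower panel the share taken by the 20 most abundant genes of that library, in percent, by compartment, with colours for substrates and marker shapes for plates. In both panels compartments 5 and 6 are lowest, and the glucose libraries 1B, 3A and 3C lie below the other glucose libraries.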

How the data were processed

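The authors deposited whole-number read counts per gene model with no normalization, 1 column for each of the 27 libraries. A SMARTer kit gave the full-length cDNA and an Ion Proton instrument read it, per the labels' protocols. The submitters' processing notes list HTSeq and DESeq2, with neither version nor role. Aligner, build, annotation and strand setting were not given in the sources used here, and reads of overlapping or near-identical genes may be split wrongly. No molecular identifiers are named. The deposited totals of 8006891 to 24501824 counts set the counting error. In the fit of all 27 libraries, p-values rest on the scatter left after compartment and plate effects, pooled over the compartments of all substrates. They do not measure the spread between plates in the compared compartments alone.

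Members were found on counts scaled by median-of-ratios factors and averaged per plate. Tests used edgeR 4.0.16 in R 4.3.3 (TMM factors, filterByExpr, quasi-likelihood F-test, two-sided), in 1 fit of 27 libraries with 9 compartment groups and the plate as block, which left 16 residual degrees of freedom, with Benjamini-Hochberg adjustment over 10990 genes and a threshold of 0.05. Each standard error was taken as the fold change (log2) over the root of F. The block follows the labels, by which all 9 compartments of a plate share 1 colony. Deviations from compartment means had a mean r of 0.122 over 108 same-plate pairs, 59 of them over 0.1. DESeq2 1.42.0, other scalings, no filter, no block, single sections and left-out plates or compartments were alternatives. The edgeR test of the sections was tried on simulated counts without a plate effect, and the other steps were not.

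The members, lists and rules were chosen with earlier results of these data known. Genes were named by rule: the 2 largest ratios, the 2 highest mean counts, the 2 nearest on each side of the 2.5-fold limit, and per section at most 2 called members up and 2 down by the change between end compartments. Exceptions are marked in the text.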

Additional observations from a re-analysis of the deposited data

How the results depend on the processing

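The number of members was 39 with TMM scaling and 12 with library totals alone, 138 at a fold limit of 2 and 5 at 4, 69 without compartment 3, 138 without compartment 4 and 171 without compartments 4 and 9. It ran from 38 to 104 with 1 plate left out. Without compartment 9 it was 57, of which 22 were among the 44. Runs without compartment 4, 6, 7 or 9 could not apply the clause on these compartments, and dropping that clause with all libraries kept gave 55 members. A further count took the 15 alternatives that keep the limits on fold and level and change the scaling, the averaging or the libraries. All 15 kept 3 members, NRRL3_2865, NRRL3_5844 and NRRL3_7269, and NRRL3_1171 was kept by 5, the fewest. Among compartments 1, 2 and 3 the count of members called ran from 0 to 7 with 1 plate left out, where 0% to 2.51% of all genes were called. From compartment 1 to 3 it ran from 0 to 17, where 0% to 15.4% of all genes were called. Among compartments 4, 5 and 6 it ran from 0 to 3, with 0.00907% to 0.375% of all genes. From 4 to 6 it ran from 0 to 4, with 0% to 0.687% of all genes. A fit of the section alone gave 25 and 31, with 10.6% and 20.2% of all genes. From 7 to 9 the count ran from 6 to 29 with 1 plate left out, with 8.7% to 35.3% of all genes. Among compartments 7, 8 and 9 it ran from 2 to 28, with 3.47% to 28.4% of all genes. Library totals alone gave 15 among these compartments, where 35.3% of all genes were called, and 18 from 7 to 9, where 44.5% were, and comparing 7 with 8 alone, chosen after seeing the data, gave 0. Without the replicate block, the counts by section, each followed by that between its end compartments, were 0, 0, 4, 4, 23 and 31. The shares of all genes called were 0.0728%, 0.0182%, 0.391%, 0.71%, 29.3% and 36.4%. Of 76 alternative values for counts of members, 54 stayed within 1.5 times the reported count. That compares counts and not the genes behind them, and it includes counts of 0 that stayed at 0. Without compartment 6, for example, the rule found 33 genes, of which 24 were among the 44. Of 54 alternative fold changes of genes named in a section, 0 changed sign, 4 lost their call and 1, of NRRL3_1998 from 7 to 9 with library totals alone, gained it at -1.47. The lost calls were those of NRRL3_4196 and NRRL3_1998 from 4 to 6 and of NRRL3_7293 without plate C, and that of NRRL3_1998 from 4 to 6 without plate A. The cause was not tested where none is given. With 3 plates, small changes cannot be called.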
